A study of Mus musculus with 32 samples.

Results

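The 10 genes followed here through 32 kidneys of lupus mice were 9 chemokines (Ccl2, Ccl7, Ccl8, Ccl12, Ccl5, Ccl9, Cxcl9, Cxcl10 and Cx3cl1) and the chemokine receptor Ccr2. They were taken by gene symbol from a list made with earlier results of these data known. All 10 had a probe set among the 15780 genes with 1 name on the array. RNA of whole kidneys was hybridized to Affymetrix arrays, and every level below is the deposited log2 expression value, on which a difference of 1 is a doubling. A group of 7 kidneys came from untreated NZB/W mice aged 30 weeks that had no proteinuria (30-week kidneys). NZB/W mice (NZB × NZW F1) develop immune complex nephritis spontaneously. Early remission after triple therapy gave 8 kidneys and late remission after it gave 6. Triple therapy was CTX (cyclophosphamide) with CTLA4Ig, which blocks T cell costimulation, and anti-CD154, an antibody to the CD40 ligand. A further 5 NZB/W kidneys in late remission came after CTLA4Ig with Ad-TACI-Ig, an adenovirus encoding a soluble receptor that binds BAFF and APRIL, on which B cells depend (TACI-Ig kidneys). The last 6 kidneys were of another lupus strain, NZM2410, in remission after Ad-BAFF-R-Ig, an adenovirus encoding a soluble receptor for BAFF. Ages of the treated mice and the length of remission are not given in the sources used here, and untreated nephritic kidneys are not analysed here.

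Chemokines are small secreted proteins that steer leukocytes by binding G protein-coupled receptors. Ccl2, Ccl7 and Ccl12 bind Ccr2, the receptor by which inflammatory monocytes leave the bone marrow and enter inflamed tissue, and Ccl8 belongs to the same monocyte chemoattractant protein family. Cxcl9 and Cxcl10 are induced by interferons and draw activated T cells through Cxcr3, and in lupus nephritis both kinds of chemokine are known to attend leukocyte entry into the kidney. Ccl5 is made by T cells and by other cells and attracts T cells and monocytes. Ccl9 is a mouse ligand of Ccr1, and Cx3cl1 (fractalkine) is a membrane-anchored chemokine of endothelium and epithelium whose receptor is Cx3cr1.

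Ccl2, Ccl7, Ccl12 and Ccl8 are called the CCR2 ligand group below, Ccl8 by its family alone. They lie in 1 run on chromosome 11, with Ccl11 between Ccl7 and Ccl12, and Ccl5 neighbours Ccl9 elsewhere on that chromosome. Promoters (250 bases before to 50 after the start, RefSeq, GRCm38.p6) were at hand for 7 of the 10. Those of the interferon-induced pair, of Ccl8, which varied most between kidneys, and of Cx3cl1, which varied least, are printed 5′ to 3′ on the strand of the gene. Capitals mark matches to GAAA and GAAA with any 2 bases between (interferon response element type), GGG and TTCC with any 2 or any 3 bases between (kB type, whose matches can overlap each other) or TTCNNNGAA (STAT type), searched on both strands. The letters searched were chosen with these sequences in view.
Cxcl10, chr5:92348840-92349139, minus strand: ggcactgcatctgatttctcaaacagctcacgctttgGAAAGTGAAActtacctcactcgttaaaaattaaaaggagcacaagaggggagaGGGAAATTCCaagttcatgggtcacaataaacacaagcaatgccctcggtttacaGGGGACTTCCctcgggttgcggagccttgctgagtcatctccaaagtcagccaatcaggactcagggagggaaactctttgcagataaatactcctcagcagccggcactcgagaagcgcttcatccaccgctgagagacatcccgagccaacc
Cxcl9, chr5:92328030-92328329, minus strand: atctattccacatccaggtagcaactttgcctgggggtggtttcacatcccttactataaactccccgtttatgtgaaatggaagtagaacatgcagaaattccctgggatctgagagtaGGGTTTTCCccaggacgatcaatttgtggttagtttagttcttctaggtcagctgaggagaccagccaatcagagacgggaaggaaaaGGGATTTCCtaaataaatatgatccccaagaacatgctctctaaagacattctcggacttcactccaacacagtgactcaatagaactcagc
Ccl8, chr11:82114935-82115234, plus strand: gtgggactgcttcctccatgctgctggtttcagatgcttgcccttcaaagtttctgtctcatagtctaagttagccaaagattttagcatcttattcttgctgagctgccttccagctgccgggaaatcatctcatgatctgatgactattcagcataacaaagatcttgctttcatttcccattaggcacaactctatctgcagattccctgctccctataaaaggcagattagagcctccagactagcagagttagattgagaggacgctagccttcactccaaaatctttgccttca
Cx3cl1, chr8:94771930-94772229, plus strand: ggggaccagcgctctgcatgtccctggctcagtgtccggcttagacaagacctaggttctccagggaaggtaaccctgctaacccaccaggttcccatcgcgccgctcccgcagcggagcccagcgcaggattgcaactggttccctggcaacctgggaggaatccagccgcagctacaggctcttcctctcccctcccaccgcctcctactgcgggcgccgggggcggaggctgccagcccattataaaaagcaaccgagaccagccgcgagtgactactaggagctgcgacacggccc

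Of the 7 promoters Cxcl10 held the only interferon response element type match, at -213 from the start, with kB type matches at -159 and, overlapping, at -104 and -103. Cxcl9 held kB type matches at -130 and -42. Ccl9 held kB type letters at -35 on the other strand, and Ccl12, Ccl8, Cx3cl1 and Ccr2 held no match in this window. Of 32851 promoters of this length, 3.44% held the interferon response element type letters, 5.82% the kB type letters with 2 bases between, 5.56% those with 3 and 8.3% the STAT type letters. A match is a run of letters and was not tested as a binding site.

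Array medians ranged from 7.02 to 7.16. The SD over probe sets was 1.91 to 2.04 on NZB/W arrays and 2.12 to 2.18 on NZM2410 arrays, so the strains' distributions were not equal. Of 22 tubule and podocyte markers, 21 lay in all 32 kidneys above 6.07, the level that 10520 of the 15780 genes exceeded on average. Adrenal cortex genes were not even: their mean level, centred on each gene's mean over the 32 kidneys, ran from -1.48 to 2.69 in 30-week kidneys, from -1.86 to 2.21 in early remission, from -0.0024 to 0.52 in late remission after triple therapy, from -1.53 to -1.30 in TACI-Ig kidneys and from -1.68 to -1.41 in NZM2410 kidneys. The level of 3 adipose tissue genes was uneven too. Its group means were 0.54 at 30 weeks, 0.58 in early remission, -0.07 in TACI-Ig kidneys and -1.6 in NZM2410 kidneys. In late remission after triple therapy the mean was 0.28, with single kidneys from -1.54 to 1.11 (highest in replicate 8). The part of adrenal and adipose tissue in the results was not tested. For every gene the mean of the late triple-therapy kidneys equalled, to within 0.0255, the mean over all 30-week and TACI-Ig kidneys taken as 1 pool, and for the 10 genes to within 0.00965. The comparisons of that group therefore hold almost no mean level of its own. The methods name a joint batch correction but no batches, and whether it set this was not tested. The 30-week replicate 6 and early-remission replicate 1 carry the same mouse code in the sample names, and nothing used here states that every kidney came from a separate mouse, so p-values measure the spread between these kidneys. In whole-kidney RNA, fewer cells of a type and less RNA per cell cannot be told apart.

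Within NZB/W the means of the groups lay closer together than the kidneys of a group did, and for all 10 genes the span of the means was smaller than the largest SD within a group. For Ccl12, Cx3cl1, Ccr2, Ccl5 and Cxcl10 it was larger than the smallest SD. In the 4 NZB/W groups the means of Ccl8 spanned 0.25 while the SDs within groups were 0.68 to 1.16. For Ccl12 the means spanned 0.38 and the SDs were 0.34 to 0.90, and for Cxcl9 they spanned 0.20 and the SDs were 0.25 to 0.73. The pooled SD within groups was 0.99 for Ccl8, larger than in 99.8% of all genes, and between 0.35 (Ccl2) and 0.77 (Ccl12) for the other genes except Cx3cl1. These 9 genes exceeded 95.8% of all genes or more, and Cx3cl1, at 0.23, exceeded 86.7%, against a median of 0.14 over all genes. Without the 2 kidneys that stood furthest apart (30-week replicate 2 and NZM2410 replicate 3) Ccl8 kept 0.85 and still exceeded 99.8% of genes. The genes were chosen with earlier results of these data known, which these ranks do not allow for.

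**Figure D1:**
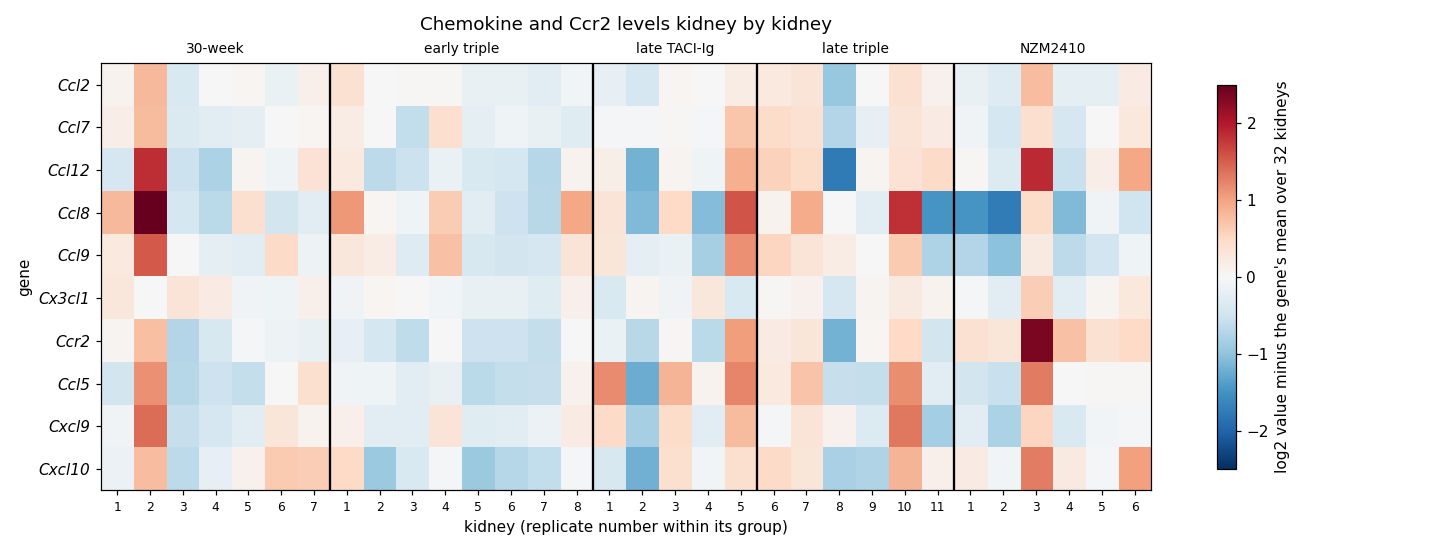
Log2 value of each gene (rows) in each of 32 kidneys (columns, numbered by replicate within the group named above) minus the gene's mean over all kidneys, red for higher and blue for lower, the darkest shade standing also for values past the end of the scale. Single columns stand out, such as 30-week replicate 2 and NZM2410 replicate 3 (red) and TACI-Ig replicate 2 and late triple-therapy replicate 8 (blue).

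Single kidneys stood out in most of the genes at once. The 30-week replicate 2 had the highest level of its group in 9 of the 10 genes, all except Cx3cl1. Its Ccl8 level was 10.19, 6.65-fold above the mean of the other 6 kidneys (6.89 to 8.38), its Ccl12 level 7.79 against 5.15 to 6.31, and its Ccl9 level 7.66 against 5.88 to 6.61. All 22 macrophage and monocyte markers measured were also highest of the group in that kidney, as were 26.1% of all genes. NZM2410 replicate 3 was highest of its group in all 10 genes and in all 22 macrophage markers, against 20.6% of all genes. TACI-Ig replicate 5 was highest in 8 of 10 and late triple-therapy replicate 10 in 8 of 10, with 20 and 21 of the 22 macrophage markers highest there. At the other end, TACI-Ig replicate 2 was lowest in 7 genes, late triple-therapy replicate 8 in 6 and NZM2410 replicate 2 in 9. The share of all genes lowest in these kidneys was not taken. Whether the spread reflects the number of macrophages in a kidney was not tested.

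The CCR2 ligand group showed this range group by group. Ccl8 ran from 6.89 to 10.19 (median 7.31) in 30-week kidneys and from 6.87 to 8.65 (median 7.53) in early remission. In TACI-Ig kidneys it was 7.89, 6.46, 8.06, 6.48 and 9.13, and in late remission after triple therapy 6.10 to 9.39 (median 7.62). In NZM2410 kidneys it ran from 5.81 to 8.02 (median 6.76). Kidneys of every group lay among those of the others, although the NZM2410 mean, 6.82 ± 0.85 (SD, n = 6), was the lowest. Over all 32 kidneys Ccl8 covered a 20.9-fold range, the widest of the 10 genes.

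Ccl12, a monocyte chemoattractant of the mouse, was 5.15 to 7.79 (median 5.84) in 30-week kidneys and 5.24 to 6.19 (median 5.54) in early remission. The TACI-Ig kidneys had 6.09, 4.77, 6.03, 5.85 and 6.83, and NZM2410 kidneys 5.38 to 7.82 (median 6.04). In late remission after triple therapy 5 of 6 kidneys lay between 6.01 and 6.53 and replicate 8 lay at 4.18. Ccl12 thus spread over a 12.5-fold range, much of it from 30-week replicate 2, NZM2410 replicate 3 and late triple-therapy replicate 8. Ccl2, the main Ccr2 ligand, was steadier. It was 7.02 to 8.20 in 30-week kidneys, 7.13 to 7.76 in early remission, 6.97 to 7.57 in TACI-Ig kidneys, 6.44 to 7.76 in late remission after triple therapy and 7.08 to 8.16 in NZM2410 kidneys. Its 5 group means spanned 0.16, less than every SD within a group (smallest 0.20). An SD measures single kidneys and not the precision of a mean, so this does not show the means to be equal. Ccl7, a neighbour of Ccl2 in the genome, lay between 4.67 and 6.21 in all kidneys, with group means from 5.31 (early remission) to 5.53 (TACI-Ig).

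**Figure D2:**
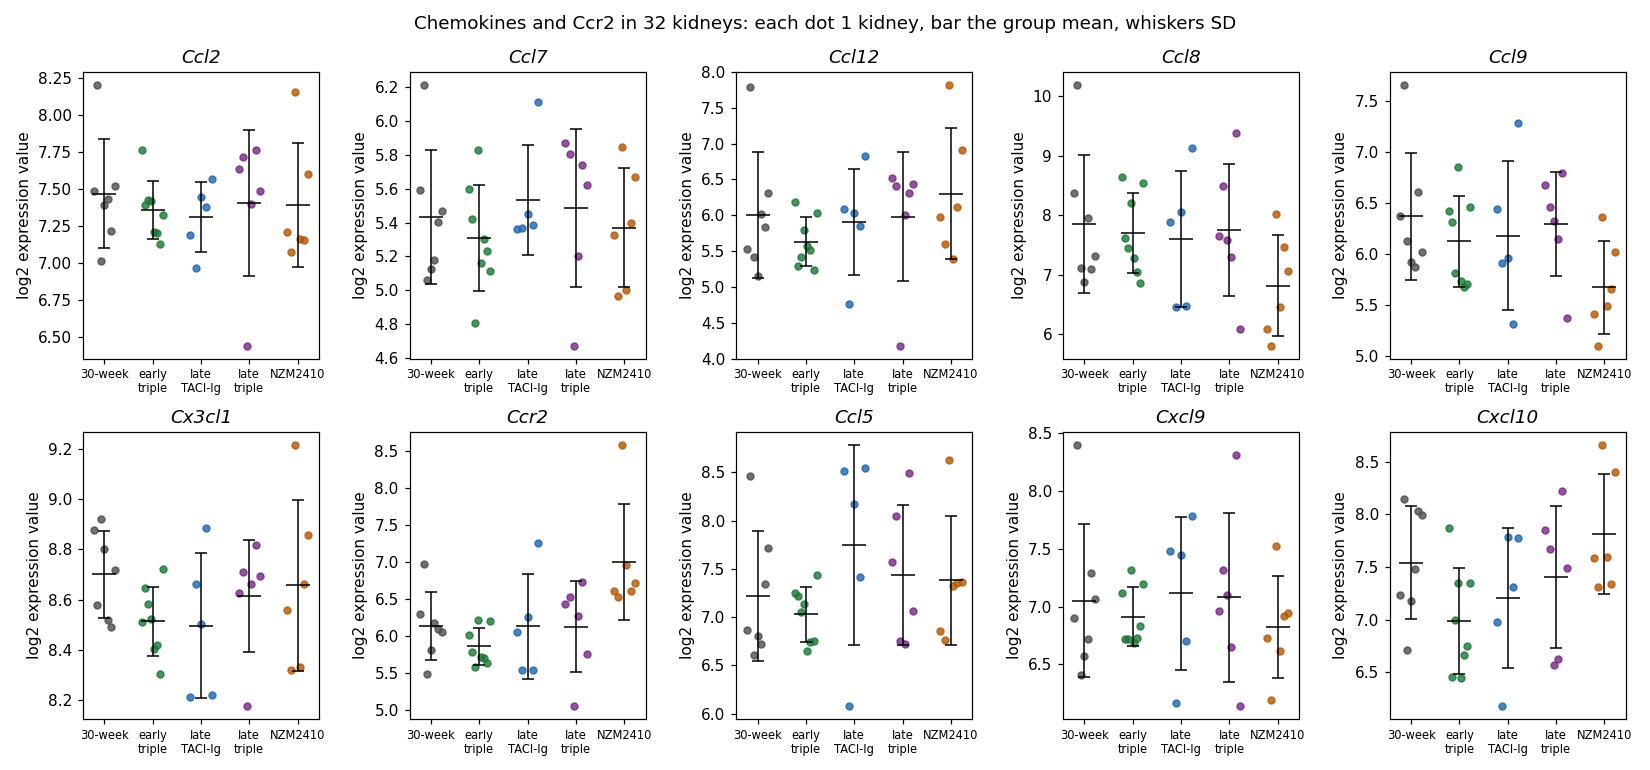
Log2 expression value of each gene (1 panel a gene, each with its own y axis) in the 5 groups on the x axis, with 1 dot per kidney, a bar at the group mean and whiskers of 1 SD (n = 7, 8, 5, 6 and 6). The groups overlap in every panel, and the NZM2410 kidneys sit high for Ccr2 (6.53 to 8.58) and low for Ccl8 and Ccl9.

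Ccr2 had the widest span of group means, 1.14, with NZM2410 kidneys highest. It was 5.48 to 6.97 (median 6.10) in 30-week kidneys, 5.58 to 6.21 (median 5.75) in early remission and 5.05 to 6.73 (median 6.35) in late remission after triple therapy. The TACI-Ig kidneys had 6.06, 5.53, 6.26, 5.54 and 7.26. The NZM2410 kidneys had 6.60, 6.53, 8.58, 6.96, 6.61 and 6.72, so that 3 of 26 NZB/W kidneys lay above the lowest of them. Within NZB/W the 4 means spanned 0.27, about the smallest SD within a group (0.25) and below the others (0.46 to 0.71), and neighbours in that order did not differ beyond their spread. NZM2410 replicate 3 decided much of the NZM2410 mean, which was 7.00 ± 0.79 (SD, n = 6) with it and 6.68 ± 0.17 (SD, n = 5) without it.

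Ccl9 was 5.88 to 7.66 (median 6.13) in 30-week kidneys, 5.68 to 6.86 (median 6.07) in early remission, and 5.37 to 6.79 (median 6.39) in late remission after triple therapy. It was 6.44, 5.91, 5.96, 5.31 and 7.28 in TACI-Ig kidneys and 5.10 to 6.36 (median 5.57) in NZM2410 kidneys. Every NZB/W kidney lay above the lowest NZM2410 kidney, replicate 2, for Ccl9 and for Ccl8. The strains overlapped all the same. Leaving NZM2410 replicate 3 aside, 15 of 26 NZB/W kidneys for Ccl9 and 14 of 26 for Ccl8 lay above all NZM2410 kidneys. The share of all genes with such an order was not taken. Cx3cl1 varied least, between 8.17 and 9.22 over all kidneys, and followed another pattern. In 30-week kidneys its highest level, 8.92, was in replicate 3, in which 6 of the other genes were lowest. In TACI-Ig kidneys it was 8.21, 8.66, 8.50, 8.88 and 8.22, and replicate 5, highest for 8 genes, was among the lowest 2. In NZM2410 kidneys it went with the others: replicate 3 had the highest level (9.22) and replicate 2 the lowest (8.32).

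Ccl5 was widest in TACI-Ig kidneys, at 8.51, 6.08, 8.17, 7.42 and 8.54, where 3 of 5 kidneys were above 8. In 30-week kidneys it was 6.60 to 8.47 (median 6.87), in early remission 6.65 to 7.44 (median 7.09), in late remission after triple therapy 6.73 to 8.49 (median 7.31), and 6.76 to 8.63 in NZM2410 kidneys (median 7.34). The TACI-Ig range thus took in all other kidneys but 1, NZM2410 replicate 3. Cxcl9 was 6.41 to 8.39 (median 6.90) in 30-week kidneys, 6.68 to 7.31 (median 6.78) in early remission, 6.14 to 8.31 (median 7.03) in late remission after triple therapy and 6.19 to 7.53 (median 6.82) in NZM2410 kidneys. The TACI-Ig kidneys had 7.48, 6.16, 7.45, 6.70 and 7.78. Cxcl10 had its lowest mean in early remission, with 6.44 to 7.87 (median 6.88), against 6.71 to 8.15 (median 7.48) at 30 weeks. It was 6.98, 6.18, 7.78, 7.31 and 7.77 in TACI-Ig kidneys, 6.57 to 8.22 (median 7.58) in late remission after triple therapy and 7.31 to 8.66 (median 7.59) in NZM2410 kidneys.

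Early remission was compared with the 30-week kidneys to ask how chemokines stood soon after triple therapy. All 10 group means were lower in early remission, by a median of 0.19 on the log2 scale, whereas 40.4% of all genes had a lower mean (median difference 0.02). The largest differences were of Cxcl10 at -0.56 (SE 0.24, 95% interval -1.06 to -0.05, limma adjusted p = 0.515) and of Ccl12 at -0.38 (SE 0.30, adjusted p = 0.752). Cx3cl1 differed by -0.19 (SE 0.08, interval -0.35 to -0.02, adjusted p = 0.502) and Ccr2 by -0.27 (SE 0.17, adjusted p = 0.680). None of the 10 passed an adjusted p of 0.05 in limma, as none of all genes did (percent called 0), and 2 of 10 had an unadjusted p under 0.05 against 8.78% of all genes. Interferon-inducible genes had a lower mean in 21 of 22 cases (median -0.25, 0 called, 7 at an unadjusted p under 0.05) and macrophage markers in 21 of 22 (median -0.18, 0 called). Of the other chemokines 17 of 24 had a lower mean (median -0.03), and of the other receptors 11 of 19 (median -0.0098), again with 0 called. Without 30-week replicate 2 the direction turned for 5 genes (Ccl2 0.01, Ccl7 0.0029, Ccl8 0.25, Ccl5 0.02 and Cxcl9 0.09), and the differences of Ccl12, Ccl9 and Ccr2 shrank to -0.080, -0.028 and -0.13, while Cxcl10 was at -0.45 and Cx3cl1 at -0.21.

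**Figure D3:**
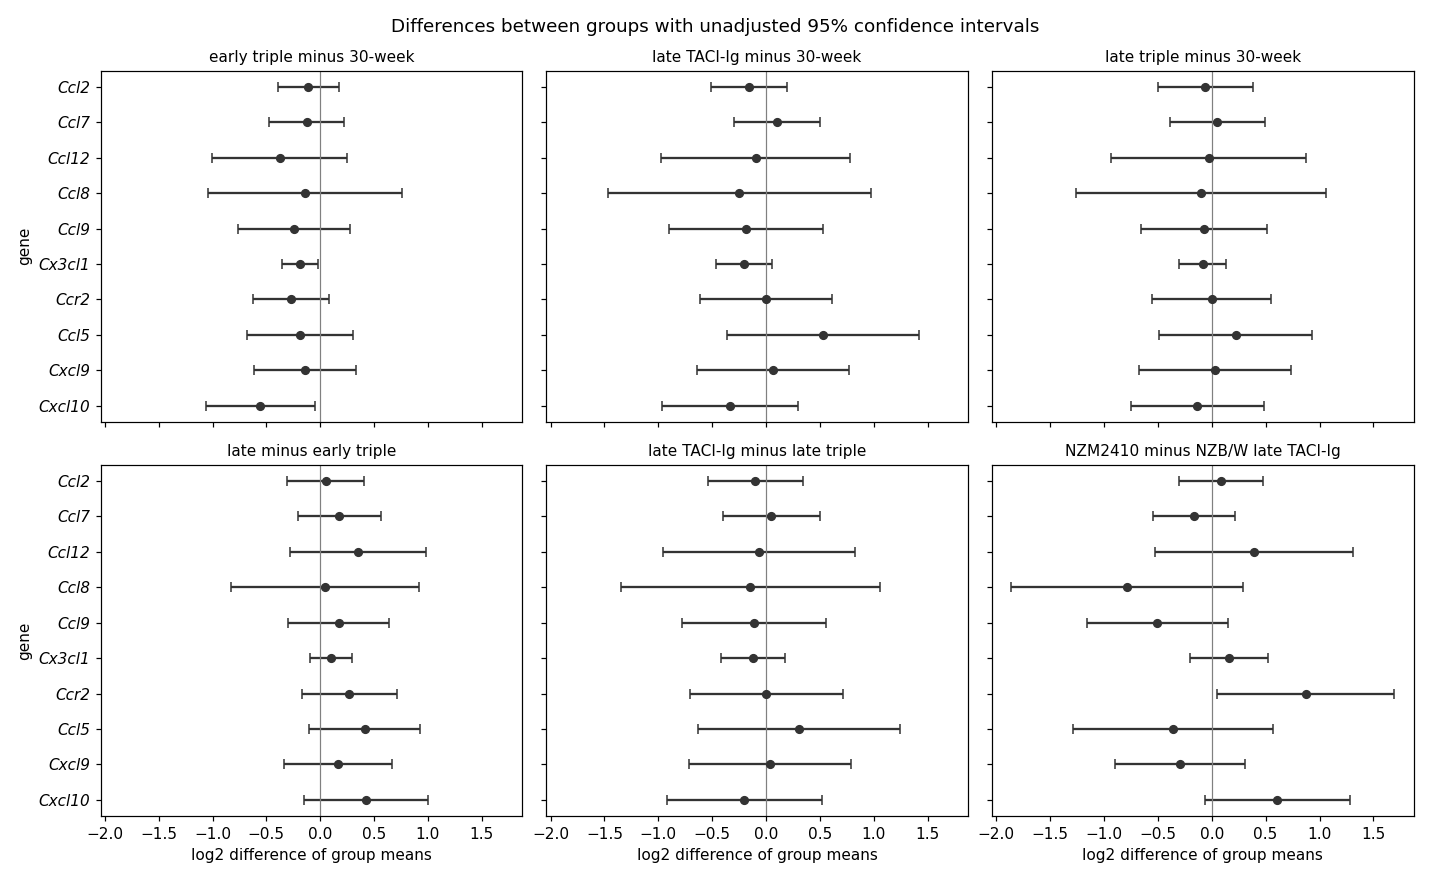
Difference of group means on the log2 scale (x axis) for each gene (y axis) in 6 comparisons, with 95% confidence intervals from limma that are not adjusted for the number of genes. The intervals leave out 0 for Cxcl10 and Cx3cl1 in early remission against 30 weeks and for Ccr2 in NZM2410 against TACI-Ig kidneys, and no gene passed an adjusted p of 0.05.

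Late remission after TACI-Ig and CTLA4Ig gave means on both sides of the 30-week kidneys, 4 higher and 6 lower. Ccl5 differed most, by 0.53 (SE 0.42, interval -0.36 to 1.42, adjusted p = 0.448). Cxcl10 differed by -0.34 (SE 0.30, adjusted p = 0.498), Ccl8 by -0.25 (interval -1.47 to 0.97, adjusted p = 0.813) and Cx3cl1 by -0.21 (SE 0.12, adjusted p = 0.324). Ccr2 was level, at 0.0025 (interval -0.61 to 0.61). None of the 10 was called, and 0 of all genes were (percent called 0), although 20.3% of all genes and none of the 10 had an unadjusted p under 0.05. Interferon-inducible genes had a higher mean in 17 of 22 cases (median 0.11) and macrophage markers in 13 of 22 (median 0.08), with 0 called in either list. Proximal tubule markers had a lower mean in 7 of 7 (median -0.44, 0 called). Without TACI-Ig replicate 2 the Ccl5 difference was 0.94 (adjusted p = 0.0817), that of Cxcl10 was -0.079, and 1309 of all genes were called in place of 0. Leaving out 1 kidney turned the direction of 6 genes.

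In late remission after triple therapy no gene differed from the 30-week kidneys by more than 0.22 (Ccl5, interval -0.49 to 0.93), and adjusted p was 1.0 for all 10 (percent called 0 among all genes, 46 of which had an unadjusted p under 0.05). Ccl8 differed by -0.10 with an interval of -1.26 to 1.06, so that a doubling either way was within its interval. The Ccl5 difference was 0.43 without 30-week replicate 2 and 0.012 without late triple-therapy replicate 10. The TACI-Ig and late triple-therapy kidneys likewise differed by at most 0.30 (Ccl5, adjusted p = 0.984), with 0 of the 10 called against 0.076% of all genes, 12 in number and all lower, and 0.0507% by the study's stricter filter on p and fold, which also called 0 of the 10. That Ccl5 difference was 0.72 without TACI-Ig replicate 2 and 0.11 without replicate 5. Both results carry the limit given above, that the late triple-therapy means equal those of the other groups pooled. Leaving out 1 kidney turned the direction of 9 genes in the first comparison and of 7 in the second.

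Late against early remission after triple therapy gave 10 of 10 higher means (median 0.17), whereas 54.8% of all genes had a lower mean in late remission. Cxcl10 differed by 0.42 (SE 0.27, interval -0.16 to 0.997), Ccl5 by 0.41 (SE 0.24), Ccl12 by 0.35 (SE 0.30) and Ccr2 by 0.27 (SE 0.21), each with an adjusted p of 1.0. None of the 10 was called, against 0.0697% of all genes (11 genes, all lower), and none had an unadjusted p under 0.05, against 5.31% of all genes. Interferon-inducible genes had a higher mean in 22 of 22 cases (median 0.32, 8 with an unadjusted p under 0.05, 0 called) and macrophage markers in 22 of 22 (median 0.29, 0 called). Of the other chemokines 19 of 24 had a higher mean (median 0.09, 0 called). This comparison shares the early-remission kidneys with the first and sets them against means that equal those of the pooled other kidneys, so its directions largely restate the first comparison. With the letters of the mouse codes as a covariate 7 of 10 differences turned, Ccl8 to -0.79, and 1 kidney moved the larger ones: without late triple-therapy replicate 8 Ccl12 was at 0.71 (adjusted p = 0.0824) and Ccr2 at 0.49, and without replicate 10 Ccl5 was at 0.20, Ccr2 at 0.15 and Cxcl10 at 0.26.

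NZM2410 kidneys in remission were compared with the TACI-Ig kidneys, which sets strain and treatment against each other at once, so that strain, BAFF-R-Ig and array distribution cannot be told apart. Here 59.5% of all genes were called (28.6% higher and 30.9% lower) and none of the 10 was, while 63.6% of all genes and 1 of the 10 (Ccr2) had an unadjusted p under 0.05. Ccr2 came nearest, with a mean of 7.00 ± 0.79 (SD, n = 6) against 6.13 ± 0.71 (SD, n = 5), a difference of 0.87 (SE 0.38, 1.83-fold, interval 0.05 to 1.69, adjusted p = 0.0644). Cxcl10 differed by 0.61 (SE 0.31, adjusted p = 0.109), Ccl8 by -0.78 (SE 0.50, adjusted p = 0.192) and Ccl9 by -0.51 (SE 0.30, adjusted p = 0.165). Without NZM2410 replicate 3 the Ccr2 difference was 0.56 (adjusted p = 0.0912). Without TACI-Ig replicate 5 Ccl8 was at -0.40 and Ccl9 at -0.23, and without TACI-Ig replicate 2 Cxcl10 was at 0.35. The Ccr2 difference passed the threshold without TACI-Ig replicate 5 (1.15, adjusted p = 0.0145) and with all 5 groups in 1 fit (0.87, adjusted p = 0.0197).

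Of 24 other chemokines 3 were called higher and 10 lower in NZM2410 (median -0.24), and of 19 other receptors 4 higher and 9 lower (median -0.16), shares to be read against the 59.5% called among all genes. Among the chemokines, Cxcl13, which forms B cell follicles, differed by -0.88 (SE 0.34, adjusted p = 0.0379). Xcl1, a lymphocyte product, differed by 0.78, Cxcl11, also a Cxcr3 ligand, by -0.78, Ccl4 by -0.77, and Ppbp, a platelet chemokine, by -0.70. Among the receptors Ccr6 was lower, at -1.09, as was Cxcr2, of neutrophils, at -0.97. Cx3cr1, the receptor of Cx3cl1, was higher by 0.89 (SE 0.26, adjusted p = 0.00998), Cxcr6 was higher by 0.89 and Cxcr4 was lower, at -0.81. Cx3cl1 itself differed by 0.16 (SE 0.17, adjusted p = 0.424). Of 22 macrophage markers 2 were called, both lower (Fcer1g at -1.16 and Itgax at -0.67), and 15 had a lower mean (median -0.20). Of 22 interferon-inducible genes 2 were called higher (Rtp4 0.71 and Irgm1 0.54) and 2 lower (Ifi27l2a at -0.96 and Oas2 at -0.52).

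Monocyte-attracting chemokines were then set against the interferon-induced pair, kidney by kidney. The level of a class was the mean over its genes of the log2 value minus the gene's mean over 32 kidneys, for 6 monocyte-attracting genes (the 4 of the CCR2 ligand group, Ccl9 and Cx3cl1) and for Cxcl9 with Cxcl10. Ccl5, which attracts both T cells and monocytes, was in neither class. Cx3cl1 was kept in the first class although it varied apart from the other genes. Both classes were highest in 30-week replicate 2, at 1.27 and 1.09. Early remission had the lowest mean of the interferon-induced class, -0.23 ± 0.36 (SD, n = 8), and NZM2410 the lowest of the monocyte-attracting class, -0.14 ± 0.53 (SD, n = 6). The difference of the classes, monocyte-attracting minus interferon-induced, was -0.27 ± 0.15 (SD, n = 6) in NZM2410 kidneys, where all 6 lay below 0 (-0.46 to -0.05). In early remission it was 0.16 ± 0.19 (SD, n = 8), from -0.04 to 0.54. These groups did not overlap, by a narrow gap, with end values of -0.0398 and -0.0469. The share of all genes, or of other such scores, that part these groups was not taken. Between NZM2410 and TACI-Ig kidneys 59.5% of all genes were called. In the 30-week, TACI-Ig and late triple-therapy kidneys the difference of the classes averaged 0.02, 0.02 and 0.02 with SDs of 0.33, 0.33 and 0.33. The late triple-therapy average adds no separate result. For each gene that group's mean lay within 0.00965 of a single mean over all kidneys in both groups named before it. With the CCR2 ligand group alone as the monocyte-attracting class the NZM2410 mean was -0.24 ± 0.20 and the early-remission mean 0.15 ± 0.17, and the groups overlapped (-0.50 to 0.0073 and -0.07 to 0.45). The genes within a class did not go 1 way in NZM2410 kidneys. Of the 5 groups these had the highest mean of Cxcl10 but the lowest of Cxcl9. They also had the highest mean of Ccl12 but the lowest of Ccl8 and Ccl9. Strain, treatment and array distribution cannot be told apart in these kidneys. The class scores describe genes chosen with earlier results known and have no test.

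**Figure D4:**
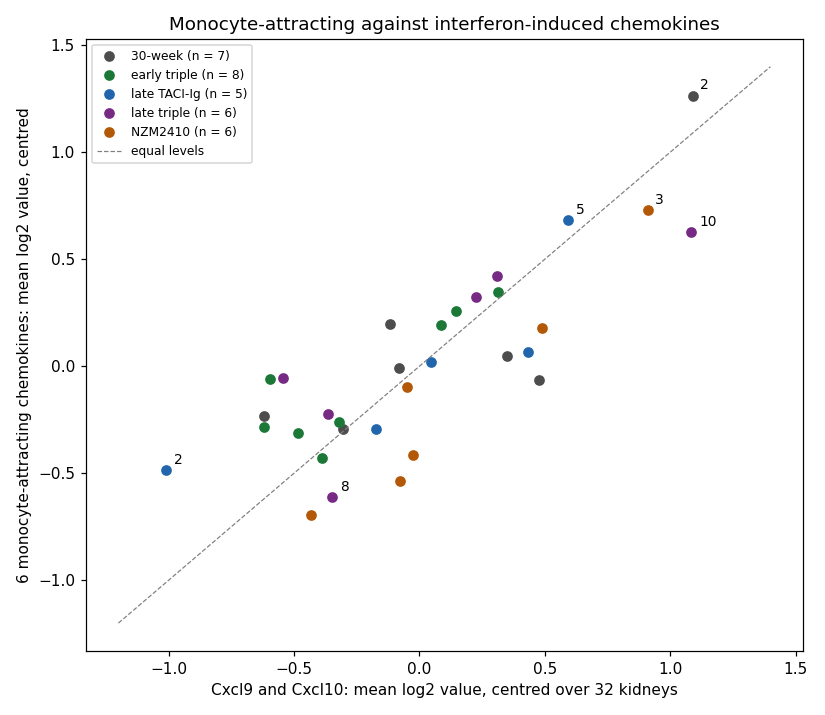
Mean centred log2 level of 6 monocyte-attracting chemokines (y axis) against that of Cxcl9 and Cxcl10 (x axis), with 1 dot per kidney coloured by group, replicate numbers beside 6 kidneys named in the text, and a dashed line of equal levels. The 30-week replicate 2 is highest in both classes (1.27 and 1.09), and all 6 NZM2410 kidneys lie below it.

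Apart from Cx3cl1 the genes moved together from kidney to kidney. With group means removed, the 36 pairs of the other 9 genes all correlated positively over the 32 kidneys, with Pearson r from 0.517 to 0.899 (median 0.721) and Spearman coefficients from 0.470 to 0.840. The largest of their permutation p-values was 0.00674 for r and 0.0129 for the Spearman coefficient, adjusted over 45 pairs. Correlations of pairs drawn from all genes are not given here, so whether these values exceed such a background was not tested. The genes were chosen with earlier results of these data known, which the p-values of the 45 pairs do not allow for. Without the 2 kidneys furthest from the median in each case r was 0.464 to 0.853, and without 30-week replicate 2 and NZM2410 replicate 3 it was 0.289 to 0.836 (median 0.655). Within the groups of 6 or more kidneys the median r of the 36 pairs was 0.848 at 30 weeks, 0.683 in early remission, 0.70 in late triple-therapy kidneys (34 of 36 positive) and 0.888 in NZM2410. The pairs did not divide by class: the closest were Ccl2 with Ccl12 (r = 0.899), Ccl8 with Cxcl9 (r = 0.887), and Ccl5 with Cxcl9 (r = 0.869). Genes of the CCR2 ligand group correlated with each other at a median r of 0.721 and with Cxcl9 and Cxcl10 at 0.654, ranges that overlapped (0.617 to 0.899 and 0.576 to 0.887). The Ccl8 promoter printed above holds none of the motif letters found in that of Cxcl9, and whether promoters bear on these correlations was not tested.

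**Figure D5:**
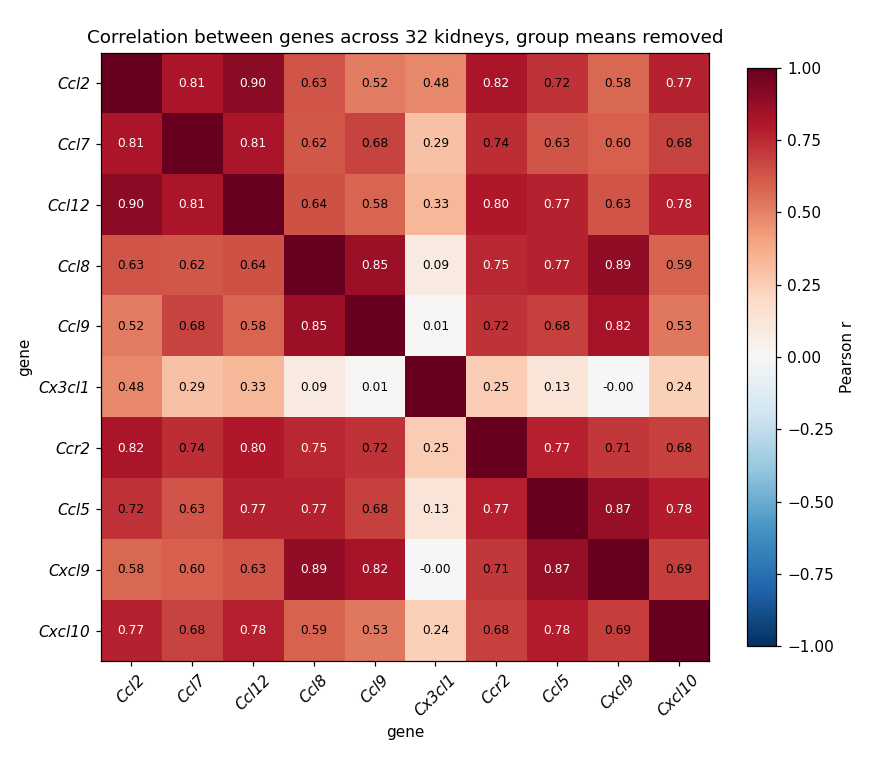
Pearson r between each pair of the 10 genes over 32 kidneys after group means were removed, with genes on both axes and r in each cell. Cx3cl1 forms the pale row and column (r from -0.00 to 0.48), and the other pairs range from 0.52 to 0.90.

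Cx3cl1 correlated with the other 9 genes at r from -0.0029 to 0.484 (median 0.238). Only its pair with Ccl2 had an adjusted p under 0.05 for r (r = 0.484, adjusted permutation p = 0.0196, Spearman coefficient = 0.360 with p = 0.0763), and r was 0.174 without late triple-therapy replicate 8 and NZM2410 replicate 3, so that relation rests on those kidneys. Its median r without 30-week replicate 2 and NZM2410 replicate 3 was 0.0207. Within groups of 6 or more kidneys its median r with the 9 genes was -0.449 at 30 weeks (negative in 9 of 9), 0.427 in early remission, 0.706 in late triple-therapy kidneys and 0.938 in NZM2410, and the difference between groups was not tested.

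The 9 genes also went with the leukocyte and interferon lists. Ccl8 and the mean of 22 macrophage markers had r = 0.918 (Spearman coefficient = 0.894) and Ccl9 r = 0.888 (Spearman coefficient = 0.855). Ccl5 went most closely with interferon-inducible genes (r = 0.912, Spearman coefficient = 0.891) and T cell markers (r = 0.903, Spearman coefficient = 0.908), and Cxcl10 with interferon-inducible genes (r = 0.842, Spearman coefficient = 0.862). The lists did not part the genes cleanly. With macrophage markers Cxcl9 had r = 0.864 and Ccl5 had r = 0.854, and Ccl8 had r = 0.860 with T cell markers. Ccl12 had r = 0.812 with interferon-inducible genes and 0.759 with macrophage markers. In these and the other pairs of the 9 genes with the macrophage, interferon and T cell lists, the adjusted permutation p was at most 0.00185 for r and 0.00284 for the Spearman coefficient (40 relations). These p-values share the limits of the gene pairs: no background over all genes, and a choice made with earlier results known. Proximal tubule markers ran the other way, with r from -0.712 (Ccl5) to -0.403 (Ccl7) and adjusted p at most 0.0334, but from -0.61 (Ccl5) to -0.17 (Ccl7) without 30-week replicate 2 and NZM2410 replicate 3. The Spearman coefficients were weaker except for Cxcl10, and for Ccl7 (adjusted p = 0.162) and Ccr2 (adjusted p = 0.105) missed 0.05. The macrophage level ran from -0.40 to 1.41 in 30-week kidneys, from -0.66 to 0.46 in early remission, from -0.72 to 1.16 in TACI-Ig kidneys, from -0.50 to 0.93 in late remission after triple therapy and from -0.75 to 0.98 in NZM2410 kidneys. Its part in the chemokine levels was not tested beyond these values.

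Among all genes, those whose variation between kidneys of a group was most like the monocyte-attracting class were Ms4a7 (r = 0.94), Fcgr1 (r = 0.93), Lyz2 (r = 0.92), Prex1 (r = 0.92) and Lcp1 (r = 0.92). Ms4a7, Fcgr1 and Lyz2 are known in macrophages and monocytes. The most like the interferon-induced pair were Ifi47 (r = 0.92), Iigp1 (r = 0.90), Psmb8 (r = 0.90), H2-K1 (r = 0.90) and Calhm6 (r = 0.89). Known interferon-induced genes, such as Ifi47 and Iigp1, are among them. Without 30-week replicate 2, Ms4a7 and Fcgr1 remained the first genes of the monocyte-attracting class (r = 0.93 and 0.92), and Ifi47, Iigp1 and Psmb8 those of the interferon-induced class (r = 0.91, 0.89 and 0.88). These r values over 32 kidneys are descriptions of likeness, with no test.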

How the data were processed

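RNA of 32 whole kidneys was measured on Affymetrix arrays, 1 array a kidney. The authors' deposited values are log2 expression after RMA, which corrects background, normalizes quantiles and summarizes probes, and by the methods all arrays went through 1 normalization with a batch correction, so group differences tied to a batch may be reduced or introduced. The deposited arrays of the strains still differ in SD, as given above, and why they do was not tested. Of 16539 probe sets, 64 array controls and 695 without a name were left out and 15780 with 1 gene name were tested. Groups came from sample titles. Each comparison was fitted on its own groups with limma 3.58.1 (R 4.3.3) and adjusted by Benjamini-Hochberg over all genes at 0.05. The methods' own test was replaced by limma, and their filter (adjusted p of 0.001, fold of 1.4 or 0.7) was an alternative. The other alternatives were a further quantile normalization, median centring, a filter on dim genes (mean below 6.07), 1 fit over all groups, array weights, an intensity trend with robust prior, the replicate number or letters of the mouse code as covariates, and leaving out kidneys. Correlations used values with group means removed and 100000 permutations over kidneys, two-sided (Python 3.11.15, scipy 1.17.1, numpy 2.4.6, pandas 2.3.3). The fits were checked on simulated data. Besides the 10 genes, the genes named were at most the 5 called with the largest difference in each of 4 lists (other chemokines, other receptors, interferon-inducible genes, macrophage markers) and the 5 most like each class. The genes and lists were chosen with earlier results of these data known. Arrays give no read depth, and the number of arrays limits the precision.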

Additional observations from a re-analysis of the deposited data

Results flagged for a closer look

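A kidney stood apart from the rest of its group by Dixon's test at its 95% critical value in 10 of 65 tests, 9 of them among the 50 of single genes. At that level chance alone marks about 5% of such groups, and the tests share kidneys. Of the 30-week kidneys, replicate 2 stood apart for Ccl2 at 8.205 (others 7.019 to 7.522), for Ccl9 at 7.659 (others 5.877 to 6.607) and for the monocyte-attracting class at 1.265 (others -0.295 to 0.196). Late triple-therapy replicate 8 was far below the others for Ccl2 at 6.443 (others 7.404 to 7.764), Ccl12 at 4.178 (others 6.008 to 6.526) and Cx3cl1 at 8.175 (others 8.625 to 8.819). NZM2410 replicate 3 was far above them for Ccr2 at 8.58 (others 6.53 to 6.961) and Ccl5 at 8.631 (others 6.763 to 7.359). Ccl7 in TACI-Ig replicate 5 was 6.111 (others 5.36 to 5.449), and Ccl2 in early-remission replicate 1 was 7.765 (others 7.129 to 7.426). Ccl7 and Ccl12 were dim, with means below 6.07.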

How the results depend on the processing

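None of the 10 genes was called in the first 5 comparisons under any alternative run. The filter on dim genes kept 8 of the 10, so Ccl7 and Ccl12 were not tested in that alternative. For NZM2410 against TACI-Ig kidneys the count of called genes was 0, with 1 in the fit over all groups (Ccr2), 2 with the replicate number as a block (Ccl8 -0.83, adjusted p = 0.0301, and Ccr2 0.93, adjusted p = 0.0487), and 0 to 1 when 1 kidney was left out (Ccr2 without TACI-Ig replicate 5, and Ccl9 at -0.72, adjusted p = 0.0434, without TACI-Ig replicate 4, which was -0.23 without TACI-Ig replicate 5). Over all genes the calls ranged over the alternatives from 0 to 123 for early remission against 30 weeks (0 in the fit as reported), 0 to 1309 for TACI-Ig against 30 weeks (0; 1309 without TACI-Ig replicate 2 and at most 4 otherwise), 0 to 65 for late against early remission (11), 0 to 13 for TACI-Ig against late triple therapy (12) and 3153 to 10006 for NZM2410 against TACI-Ig kidneys (9388). Same-numbered kidneys did not all deviate together (r from -0.714 to 0.344), so they share only a number, and no such block could be fitted for TACI-Ig against late triple therapy, whose kidneys share no numbers. Leaving out 30-week replicate 2 and NZM2410 replicate 3 together was chosen after seeing the data. With array weights, the differences that turned for early remission against 30 weeks were Ccl7 0.0027, Ccl8 0.016 and Cxcl9 0.037. With 30-week replicate 2 and NZM2410 replicate 3 left out, the differences that turned for early remission against 30 weeks were Ccl2 0.013, Ccl7 0.0029, Ccl8 0.25, Ccl5 0.019 and Cxcl9 0.087. For early remission against 30 weeks, leaving out 1 kidney at a time gave Ccl2 -0.18 to 0.013, Ccl7 -0.20 to 0.0029, Ccl8 -0.30 to 0.25, Ccl5 -0.29 to 0.019 and Cxcl9 -0.24 to 0.087, each range crossing 0. With array weights, the differences that turned for TACI-Ig against 30 weeks were Ccl12 0.19 and Ccl8 0.063. With the replicate number as a block, the differences that turned for TACI-Ig against 30 weeks were Ccr2 -0.019. With 30-week replicate 2 and NZM2410 replicate 3 left out, the differences that turned for TACI-Ig against 30 weeks were Ccl12 0.20, Ccl8 0.14 and Ccl9 0.028. With a further quantile normalization, the differences that turned for TACI-Ig against 30 weeks were Ccr2 -0.036. With arrays centred on their medians, the differences that turned for TACI-Ig against 30 weeks were Ccr2 -0.0028. Leaving out 1 kidney at a time for TACI-Ig against 30 weeks gave Ccl7 -0.043 to 0.23, Ccl12 -0.33 to 0.20, Ccl8 -0.63 to 0.14, Ccl9 -0.46 to 0.03, Ccr2 -0.28 to 0.15 and Cxcl9 -0.10 to 0.30, each range crossing 0. With array weights, the differences that turned for late triple therapy against 30 weeks were Ccl2 0.14, Ccl12 0.42, Ccl8 0.35, Ccl9 0.13, Ccr2 0.27 and Cxcl10 0.064. With the replicate number as a block, the differences that turned for late triple therapy against 30 weeks were Ccl2 0.31, Ccl12 0.39, Ccl8 0.87, Ccl9 0.25, Cx3cl1 0.065, Ccr2 0.40 and Cxcl9 -0.039. With 30-week replicate 2 and NZM2410 replicate 3 left out, the differences that turned for late triple therapy against 30 weeks were Ccl2 0.063, Ccl12 0.27, Ccl8 0.29, Ccl9 0.14 and Ccr2 0.14. For late triple therapy against 30 weeks, leaving out 1 kidney at a time gave Ccl2 -0.13 to 0.13, Ccl7 -0.026 to 0.21, Ccl12 -0.17 to 0.33, Ccl8 -0.43 to 0.29, Ccl9 -0.17 to 0.14, Cx3cl1 -0.13 to 0.0017, Ccr2 -0.12 to 0.21, Cxcl9 -0.22 to 0.25 and Cxcl10 -0.30 to 0.032, each range crossing 0. With the letters of the mouse code as covariate, the differences that turned for late against early remission were Ccl12 -0.056, Ccl8 -0.79, Ccl9 -0.17, Cx3cl1 -0.11, Ccr2 -0.078, Ccl5 -0.00033 and Cxcl9 -0.11. Leaving out 1 kidney at a time for late against early remission gave Ccl2 -0.021 to 0.24, Ccl8 -0.28 to 0.37 and Cxcl9 -0.080 to 0.35, each range crossing 0. With array weights, the differences that turned for TACI-Ig against late triple therapy were Ccl7 -0.046 and Ccr2 -0.15. With a further quantile normalization, the differences that turned for TACI-Ig against late triple therapy were Ccr2 -0.012. For TACI-Ig against late triple therapy, leaving out 1 kidney at a time gave Ccl7 -0.11 to 0.13, Ccl12 -0.43 to 0.22, Ccl8 -0.53 to 0.18, Ccl9 -0.39 to 0.10, Ccr2 -0.28 to 0.15, Cxcl9 -0.15 to 0.28 and Cxcl10 -0.37 to 0.056, each range crossing 0. With 30-week replicate 2 and NZM2410 replicate 3 left out, the differences that turned for NZM2410 against TACI-Ig kidneys were Ccl2 -0.069. Leaving out 1 kidney at a time for NZM2410 against TACI-Ig kidneys gave Ccl2 -0.069 to 0.15, each range crossing 0. The other differences kept their direction. The cause was not tested. The 5 to 8 kidneys of a group limit the precision, and a difference that missed the threshold is not shown to be absent.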
